A study of Mus musculus with 14 samples.

Results

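The transcripts described here are those of genes that carry iron into red cell precursors, store it, export it or sense it. The 10 genes were Tfrc, Slc25a37, Steap3, Slc11a2, Slc40a1, Fth1, Aco1, Ireb2, Glrx5 and Snx3. Every probe set, a group of short probes for 1 transcript, whose platform gene symbol was one of these was taken. That gave 21 probe sets for 9 of the 10 genes, of 22690 probe sets in the table, and no probe set was annotated as Glrx5, which is not analysed here. Each gene with several probe sets is led by its brightest, the one with the highest mean over all arrays.

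RNA came from material captured by laser from frozen sections of mouse yolk sacs at embryonic day 9.5, taken as primitive erythroid precursors and inspected by eye. The groups were 3 arrays of KLF1-/- embryos, 3 arrays of embryos labelled KLF1-/- KLF2-/-, and 8 arrays of wild-type embryos, all labelled strain FVB/N. The labels name no tissue-specific deletion, each sample pooled 2 to 4 yolk sacs from 2 litters, and the labels leave unstated whether any samples had a litter in common. Both KLF1 and KLF2 bind DNA through zinc fingers, KLF1 being a main activator of red cell genes. The comparisons set each mutant genotype beside wild type and beside the other mutant genotype at this stage. No group lacked KLF2 alone, so a difference in KLF1-/- KLF2-/- cannot be assigned to KLF2 or to both factors.

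Red cell precursors take up iron bound to transferrin. The complex binds the transferrin receptor (Tfrc) at the cell surface and enters an endosome, where the reductase Steap3 converts ferric to ferrous iron and the transporter DMT1 (Slc11a2) moves it into the cytosol, while the sorting nexin Snx3 helps return the receptor to the surface. Mitoferrin 1 (Slc25a37) carries iron into mitochondria for heme and iron-sulfur cluster synthesis. Ferritin heavy chain (Fth1) stores iron, ferroportin (Slc40a1) exports it, and the iron regulatory proteins Aco1 and Ireb2 bind iron-responsive elements, stabilising Tfrc messenger RNA and blocking Fth1 translation when iron is scarce.

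Members with the lowest differences between mutant and wild type were Tfrc, Slc25a37 and Steap3, and the windows before the start of Tfrc and Steap3 are shown to place the letters of the motifs searched in them. They are RefSeq sequences of assembly GRCm38.p6, printed along the gene's own strand up to the base before the annotated start nearest the gene's 5′ end. The Tfrc window is chr16:32608646-32608895, plus strand, and for Steap3 it is chr1:120271082-120271330, minus strand. Capitals mark a match on either strand to 1 of the motifs. The first, CCNCNCCC, has the form of the boxes that Krüppel-like factors bind. The second, AGATAA, has the form bound by the erythroid GATA factors.
Tfrc: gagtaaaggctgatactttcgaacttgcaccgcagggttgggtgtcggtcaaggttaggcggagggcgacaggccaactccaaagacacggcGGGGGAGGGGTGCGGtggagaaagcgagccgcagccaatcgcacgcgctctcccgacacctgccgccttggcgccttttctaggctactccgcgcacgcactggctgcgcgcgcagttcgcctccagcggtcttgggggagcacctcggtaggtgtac
Steap3: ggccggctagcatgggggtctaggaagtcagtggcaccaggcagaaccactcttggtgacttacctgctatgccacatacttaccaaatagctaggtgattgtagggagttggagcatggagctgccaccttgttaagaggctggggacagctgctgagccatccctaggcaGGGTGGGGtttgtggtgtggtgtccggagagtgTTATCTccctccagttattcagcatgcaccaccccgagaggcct
Tfrc held 3 overlapping KLF box matches on the opposite strand, the outermost letters lying at -158 and -144 from the start, and no AGATAA. Steap3 held 1 KLF box match, from -77 to -70, and 1 AGATAA match, from -44 to -39, both on the opposite strand. Such letters are common: 45.5% of 27025 genes in the same table held a KLF box match in their window and 10.2% held AGATAA. The promoter table matched 7 of the 10 genes. Aco1 and Ireb2 held 1 KLF box match each, and Fth1, Glrx5 and Snx3 held 0. The table listed 2 starts for Tfrc, 4 for Steap3 and 2 for Fth1, and the window of only 1 start was searched for each gene. A match describes the letters in this window and is no measure of binding.

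Arrays were alike in median log2 expression, which ran from 6.55 to 6.66, and differed in interquartile range, from 2.31 to 3.12. The titles number the arrays 1 to 8 (KLF1-/- and 4 wild type) and 9 to 15 (KLF1-/- KLF2-/- and 4 wild type), and nothing in the labels calls these runs of numbers batches. Klf1 signal lay at 9.03 to 9.79 on the KLF1-/- arrays and 8.56 to 9.59 on the KLF1-/- KLF2-/- arrays, below its 10.05 to 11.82 on the wild-type arrays. Klf2 signal was no lower on the KLF1-/- KLF2-/- arrays, at a mean of 6.69, than on the wild-type arrays, at 6.25. The position of either probe set relative to its gene's deletion is unstated in the labels. Neither value can therefore check a genotype, and the groups are named as labelled. Embryonic globin Hbb-y was bright in every group, at 14.38 ± 0.10 in KLF1-/- (SD, n = 3), 14.46 ± 0.06 in KLF1-/- KLF2-/- (n = 3) and 14.42 ± 0.11 in wild type (n = 8). Afp, a visceral endoderm gene, was bright too, at 13.57, 13.70 and 13.62 in the same order, so the captured material held transcripts that mark other yolk sac cells.

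Tfrc gave the lowest mutant values relative to wild type among the members. Its leading probe set, 1452661_at, stood at 9.58, 10.26 and 9.87 on the KLF1-/- arrays (log2 expression). On the KLF1-/- KLF2-/- arrays it stood at 9.85, 10.32 and 9.43, and on the 8 wild-type arrays the lowest, median and highest values were 10.50, 11.31 and 12.50. All 6 mutant arrays lay below all wild-type arrays, as they did for 0.106% of all probe sets, and neither mutant genotype stood apart from the other. Means were 9.90 ± 0.35 in KLF1-/- and 9.87 ± 0.45 in KLF1-/- KLF2-/- (SD, n = 3 each), against 11.40 ± 0.68 in wild type (n = 8). The log2 difference from wild type was −1.49 in KLF1-/- (95% interval −2.27 to −0.72), a linear ratio of 0.355, with an unadjusted p of 0.00102 and an adjusted p of 0.72 by limma over all 22629 probe sets tested. In KLF1-/- KLF2-/- it was −1.53 (−2.31 to −0.75), a ratio of 0.346, with an unadjusted p of 0.000837 and an adjusted p of 0.574 by limma. The mean of both mutant genotypes lay −1.51 from wild type (−2.13 to −0.89), with an adjusted p of 0.104 by limma. None of these passed the threshold of 0.05 on the adjusted p, so the difference is given as a size with its interval and not as a call. KLF1-/- KLF2-/- differed from KLF1-/- by −0.04, with an interval from −0.97 to 0.90 that leaves room for a difference in either direction.

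The call for Tfrc depended on the setting. The mean of both mutant genotypes against wild type passed with the number run as a block (−1.51, adjusted p = 0.0367 by limma), after quantile normalization (−1.58, 0.028), over the brighter probe sets alone (−1.51, 0.0478) and with array weights (−1.72, 0.00196). It did not pass over leading probe sets alone (adjusted p = 0.0686 by limma), with an intensity trend (0.0712) or with the Gapdh controls as a covariate (0.136). Quantile normalization together with the block, a setting added after seeing the data, gave −1.58 with an adjusted p of 0.000751. Leaving out each array in turn gave −1.64 to −1.36 with adjusted p from 0.0561 to 0.317, so no omission made a call. KLF1-/- minus wild type was not called under any alternative, the smallest adjusted p being 0.0687 by limma with array weights. KLF1-/- KLF2-/- minus wild type was called with array weights (−1.69, adjusted p = 0.00122) and with quantile normalization and the block together (−2.08, 0.00281). The array weights gave KLF1-/- KLF2-/- replicate 13 a weight of 8.85, beside 1.04 and 0.498 for replicates 14 and 15, so that group's value rests mainly on 1 array. With them 627 of all probe sets were called in KLF1-/- KLF2-/-, against 5 without.

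**Figure D1:**
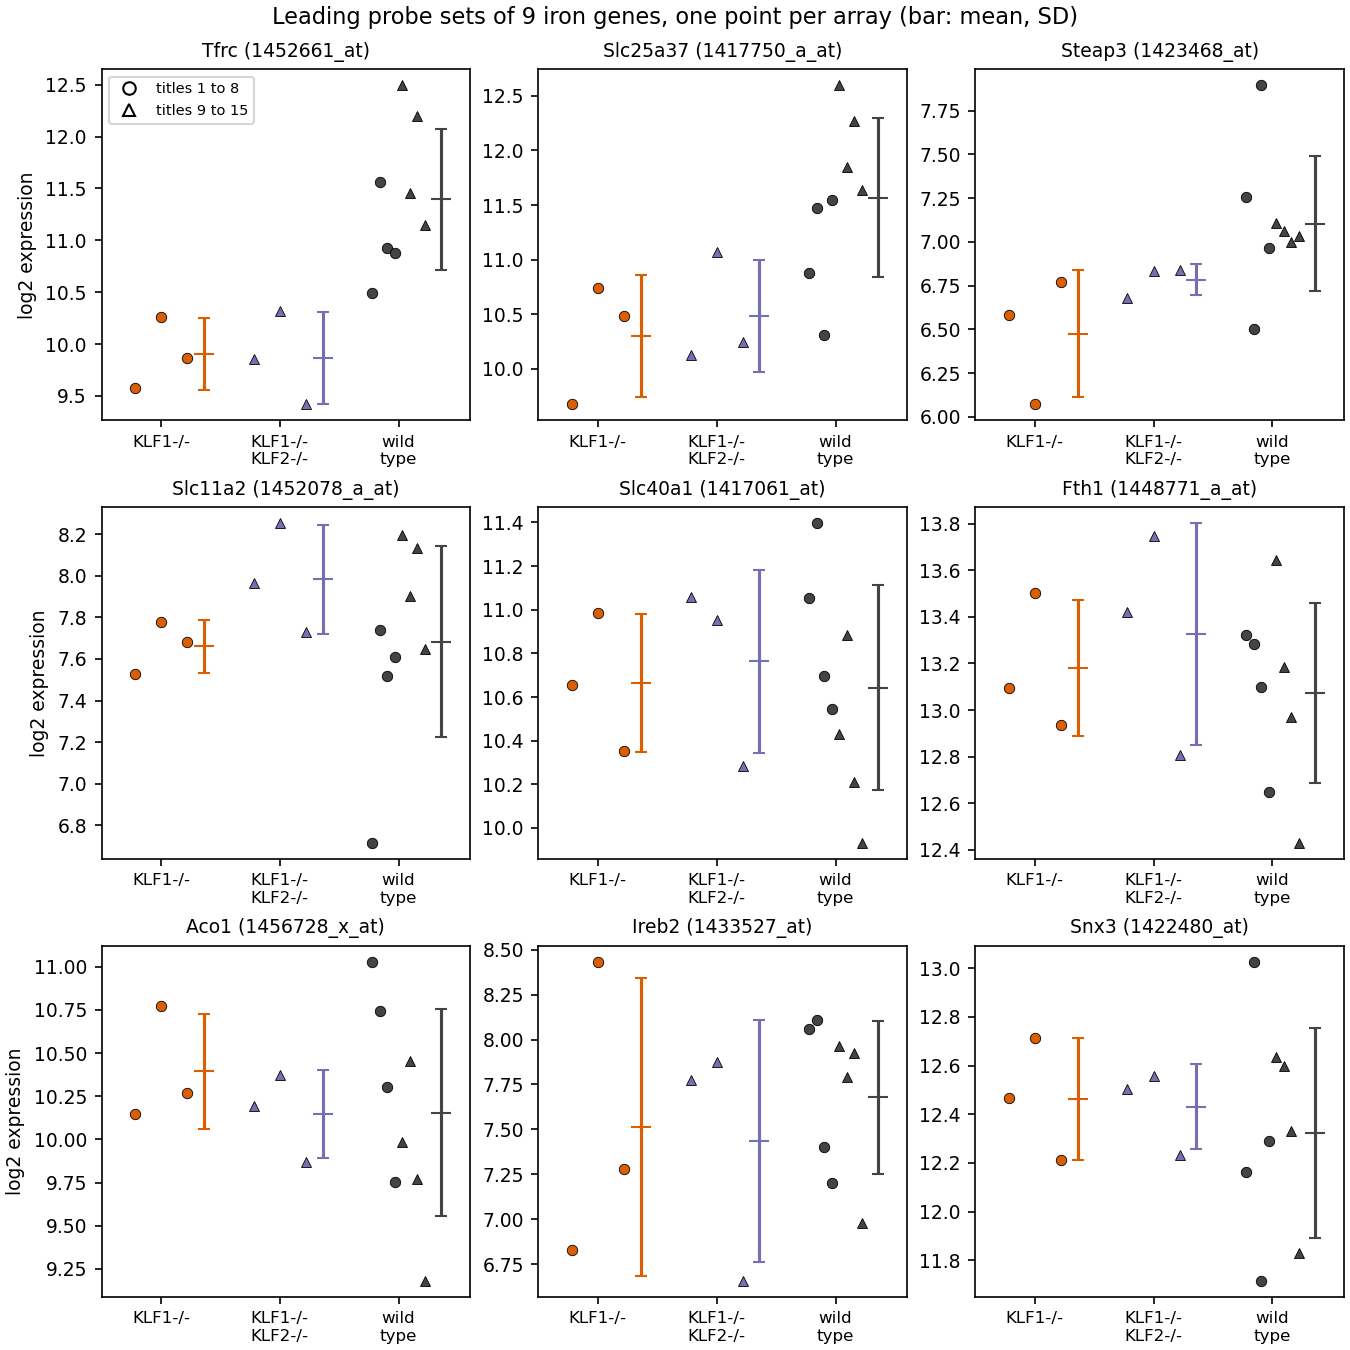
Log2 expression (vertical axes, each with its own span) of the leading probe set of 9 iron genes, 1 point per array, for KLF1-/-, KLF1-/- KLF2-/- and wild type, with the mean and SD as a bar; circles are titles 1 to 8 and triangles titles 9 to 15. Tfrc is the only panel in which all 6 mutant points lie below all 8 wild-type points. Wild-type replicates 1 and 3 reach the mutant range in the Slc25a37 panel, and replicate 2 does in the Steap3 panel.

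Tfrc had 6 probe sets, 3 of them control probe sets annotated as Tfrc (TransRecMur 3, M and 5), and they differed in size. Probe set 1422966_a_at stood at 6.99, 7.19 and 6.66 in KLF1-/- and at 7.17, 7.87 and 5.97 in KLF1-/- KLF2-/-, while the wild-type lowest, median and highest values were 7.26, 7.73 and 8.80. All KLF1-/- arrays lay below wild type there, and the KLF1-/- KLF2-/- arrays overlapped it. Its log2 differences were −0.82 in KLF1-/- (−1.57 to −0.08) and −0.77 in KLF1-/- KLF2-/- (−1.51 to −0.02), with adjusted p = 0.9998 and 0.9999 by limma. Probe set 1422967_a_at gave −0.24 and −0.23 in the same order, and TransRecMur 3 gave −0.40 and −0.22. The M and 5 controls gave −0.08 and −0.06 in KLF1-/- and −0.15 and 0.04 in KLF1-/- KLF2-/-. The M and 5 controls averaged 5.44 and 4.44 in wild type, under every array's median. Differences of weak signals are compressed in RMA values, so those of the M and 5 controls cannot be set against the others as sizes of one change. In wild type 1422967_a_at (6.72), TransRecMur 3 (6.74) and 1422966_a_at (7.77) averaged above every array's median. The cause of the unlike sizes among the 6 probe sets was not tested.

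**Figure D2:**
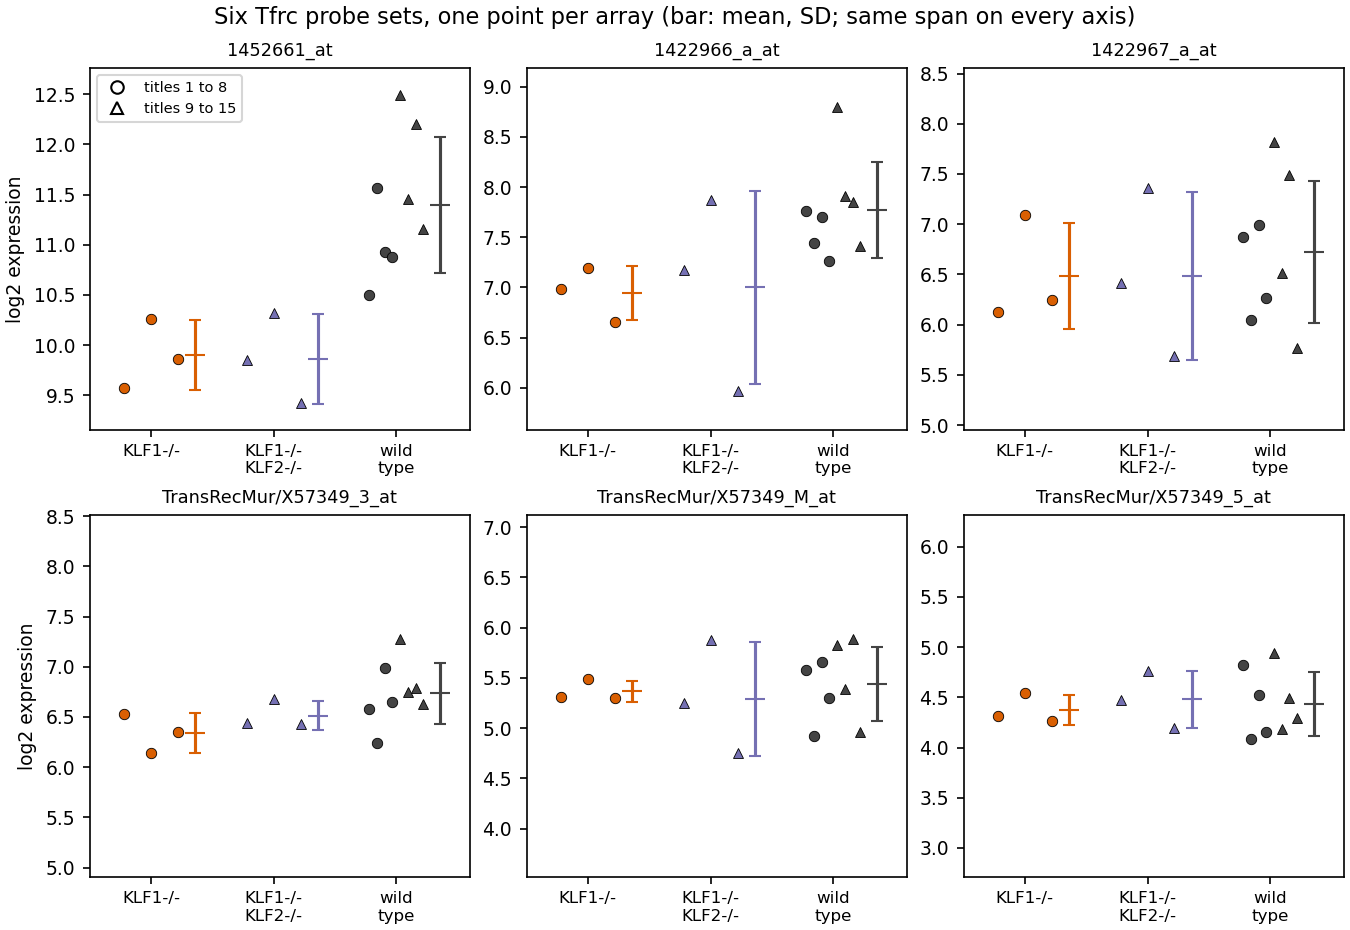
Log2 expression of the 6 Tfrc probe sets, 1 point per array, for KLF1-/-, KLF1-/- KLF2-/- and wild type, with mean and SD, every vertical axis covering the same span. Both mutant genotypes are apart from wild type, and overlap each other, for 1452661_at. Only KLF1-/- is apart from wild type for 1422966_a_at, and the groups overlap for the other 4.

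Slc25a37, the mitochondrial iron importer mitoferrin 1, was measured by 1 probe set. It stood at 9.67, 10.74 and 10.49 on the KLF1-/- arrays and at 10.13, 11.07 and 10.25 on the KLF1-/- KLF2-/- arrays. The lowest, median and highest wild-type values were 10.31, 11.59 and 12.60. The groups overlapped through wild-type replicate 3 at 10.31 and replicate 1 at 10.88, and the other wild-type arrays lay above all mutant arrays. Means were 10.30 ± 0.56 in KLF1-/- and 10.48 ± 0.51 in KLF1-/- KLF2-/- (SD, n = 3 each), against 11.57 ± 0.73 in wild type (n = 8). The log2 difference was −1.27 in KLF1-/- (−2.14 to −0.40), with an unadjusted p of 0.00725, and −1.09 in KLF1-/- KLF2-/- (−1.95 to −0.22), with 0.0177. The adjusted p by limma was 0.9998 and 0.9999, and 0.602 for the mean of both genotypes at −1.18. That mean was called with array weights (−1.55, adjusted p = 0.0074 by limma) and with quantile normalization and the block together (−1.24, 0.0489). With array weights KLF1-/- KLF2-/- was called as well (−1.59, adjusted p = 0.00311), a value that rests mainly on replicate 13.

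Steap3, the endosomal ferric reductase, was led by probe set 1423468_at. It stood at 6.58, 6.07 and 6.77 on the KLF1-/- arrays and at 6.68, 6.83 and 6.84 on the KLF1-/- KLF2-/- arrays. The lowest, median and highest wild-type values were 6.50, 7.05 and 7.90. Wild-type replicate 2, at 6.50, lay within the mutant range, and every other wild-type array lay above all 6 mutant arrays. Means were 6.48 ± 0.36 in KLF1-/- and 6.79 ± 0.09 in KLF1-/- KLF2-/- (SD, n = 3 each), against 7.10 ± 0.39 in wild type (n = 8), all close to the array medians. The log2 difference was −0.63 in KLF1-/- (−1.10 to −0.16), a ratio of 0.647, and −0.32 in KLF1-/- KLF2-/- (−0.79 to 0.15), a ratio of 0.802. Neither passed (adjusted p = 0.9998 and 0.9999 by limma, unadjusted 0.0126 and 0.169), and no alternative called Steap3. KLF1-/- KLF2-/- minus KLF1-/- was 0.31, with an interval from −0.26 to 0.88, so a difference between the mutant genotypes was not resolved. The other Steap3 probe sets had weak signal. Probe set 1430355_a_at differed from wild type by 0.03 in KLF1-/- and −0.04 in KLF1-/- KLF2-/-, and 1453498_x_at by −0.12 and 0.01. Over the 14 arrays the leading set had a Pearson's r of 0.809 with 1453498_x_at, which averaged only 4.17, and of 0.236 with 1430355_a_at. How far the leading set's differences are those of Steap3 transcript was not tested.

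Wild-type arrays 9 to 12 lay above arrays 1 to 4 for Slc25a37, and Tfrc was higher on them on average by 0.86, with 0 probe sets called between these runs by limma and 1614 at an unadjusted p under 0.05. Each mutant genotype was therefore set beside the 4 wild-type arrays numbered with it. For Tfrc the KLF1-/- mean lay −1.07 from wild-type arrays 1 to 4 and the KLF1-/- KLF2-/- mean −1.96 from wild-type arrays 9 to 12, without overlap in either run. For Slc25a37 the differences were −0.75, with overlap, and −1.61, without. For Steap3 they were −0.68, with overlap, and −0.27, without. With so few arrays, groups separate often: 1.4% of all probe sets lay without overlap below wild-type arrays 1 to 4 in KLF1-/-, where 2 of 21 did here, and 1.46% below arrays 9 to 12 in KLF1-/- KLF2-/-, where 3 of 21 did. All 6 of these within-run differences were below 0. The gap between the mutant genotypes moved with this choice: with the number run as a block, KLF1-/- KLF2-/- minus KLF1-/- was −0.89 for Tfrc and −0.86 for Slc25a37, where the fit without it gave −0.04 and 0.18, and none was called (adjusted p = 1 by limma with the block). Since each mutant genotype lies in 1 number run, that difference and the run can be told apart only through the wild-type arrays.

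**Figure D3:**
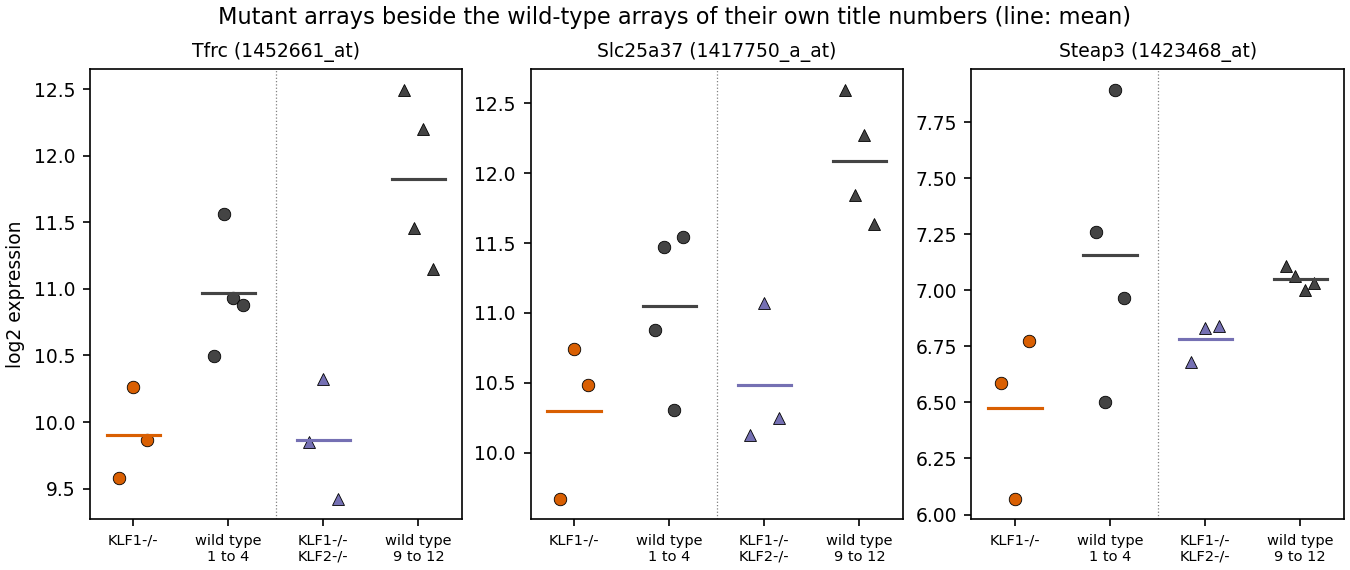
Log2 expression of the leading Tfrc, Slc25a37 and Steap3 probe sets, with each mutant genotype beside the 4 wild-type arrays of its own title numbers; points are arrays and lines are means. The wild-type arrays 9 to 12 lie higher than 1 to 4 for Slc25a37 without overlap, and the Tfrc mutant points lie below wild type in both runs.

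Transcripts of the other members showed no such gap between genotypes. Over the 11 probe sets of Slc11a2, Slc40a1, Fth1, Aco1, Ireb2 and Snx3, the log2 differences ran from −0.19 to 0.27 in KLF1-/- and from −0.24 to 0.30 in KLF1-/- KLF2-/-. Their smallest unadjusted p was 0.202 and 0.236 by limma in the same order, and the 95% intervals reached from −0.91 to 0.91 and from −0.99 to 0.82. Changes of up to that size in either direction are therefore not resolved with these arrays.

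Slc11a2, the endosomal iron transporter that acts after Steap3, stood at 7.53, 7.78 and 7.68 on the KLF1-/- arrays and at 7.96, 8.25 and 7.73 on the KLF1-/- KLF2-/- arrays, and the groups overlapped. Its log2 differences were −0.02 (−0.54 to 0.50) and 0.30 (−0.22 to 0.82). Snx3, which helps recycle the receptor, averaged 12.46 ± 0.25 in KLF1-/- and 12.43 ± 0.17 in KLF1-/- KLF2-/- (SD, n = 3 each), against 12.32 ± 0.43 in wild type (n = 8). So the other uptake genes measured here overlapped wild type in both genotypes.

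Fth1, the storage protein ferritin heavy chain, averaged 13.18 ± 0.29 in KLF1-/- and 13.32 ± 0.48 in KLF1-/- KLF2-/- (SD, n = 3 each), against 13.07 ± 0.39 in wild type (n = 8). Its log2 differences were 0.11 (−0.42 to 0.63) and 0.25 (−0.27 to 0.78). The other Fth1 probe set, 1427021_s_at, whose suffix marks probes shared between transcripts, gave −0.06 and 0.04. The pair ordered the arrays in opposing ways, with a Pearson's r of −0.606 over the 14 arrays, and so gives no single reading of Fth1. Wild-type replicate 12 was the lowest of all arrays at 12.43 in the leading set and at 13.39 in the other. KLF1-/- replicate 6 was at 13.50 and 12.37. Slc40a1, the exporter ferroportin, averaged 10.66 ± 0.32 in KLF1-/- and 10.76 ± 0.42 in KLF1-/- KLF2-/- (SD, n = 3 each), against 10.64 ± 0.47 in wild type (n = 8), and its differences were 0.02 (−0.56 to 0.60) and 0.12 (−0.46 to 0.70).

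The iron regulatory proteins overlapped wild type as well. Aco1, which doubles as cytosolic aconitase, averaged 10.39 ± 0.33 in KLF1-/- and 10.15 ± 0.25 in KLF1-/- KLF2-/- (SD, n = 3 each), against 10.15 ± 0.60 in wild type (n = 8), with log2 differences of 0.24 and −0.01. Ireb2, the iron regulatory protein with no aconitase activity, stood at 6.83, 8.43 and 7.28 in KLF1-/- and at 7.77, 7.87 and 6.66 in KLF1-/- KLF2-/-. Its differences of −0.16 and −0.24 were small beside that spread between arrays of 1 genotype. The Aco1 values are those of its leading set, 1456728_x_at. Its other set, 1423644_at, was dimmer, averaging 7.62 against 10.20 over all arrays, and differed from wild type by 0.27 and −0.03. All of these values are transcript levels and say nothing of the proteins' activity.

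Counted together, 0 of the 21 probe sets passed in any of the 4 comparisons by limma. Over all 22629 probe sets, 0.0265% were called in KLF1-/- against wild type, 0.0221% in KLF1-/- KLF2-/- against wild type, 0.0707% for the mean of both against wild type and 0% between the mutant genotypes. At an unadjusted p under 0.05, 5, 3, 5 and 0 of the 21 passed in the same order, beside 1.92%, 2.11%, 2.76% and 0.628% of all probe sets. Of the members passing in KLF1-/-, 3 were Tfrc probe sets, which share their transcript and are not independent. Arrays without overlap, mutant below wild type, were found for 2 of 21 in KLF1-/- (0.23% of all), 1 in KLF1-/- KLF2-/- (0.305%) and 1 for all mutant arrays together (0.106%), all Tfrc. Between the mutant genotypes 1 of 21 lay without overlap above (1.86% of all), the dim Steap3 set 1453498_x_at. The median log2 difference of the 9 leading probe sets was −0.02 in KLF1-/- and −0.01 in KLF1-/- KLF2-/-, against 0.01 over the leading probe sets of all 12393 genes in each. The low values were thus those of Tfrc and Slc25a37 and, less far from wild type and close to the array medians, of the leading Steap3 set. The median of the members lay near 0.

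**Figure D4:**
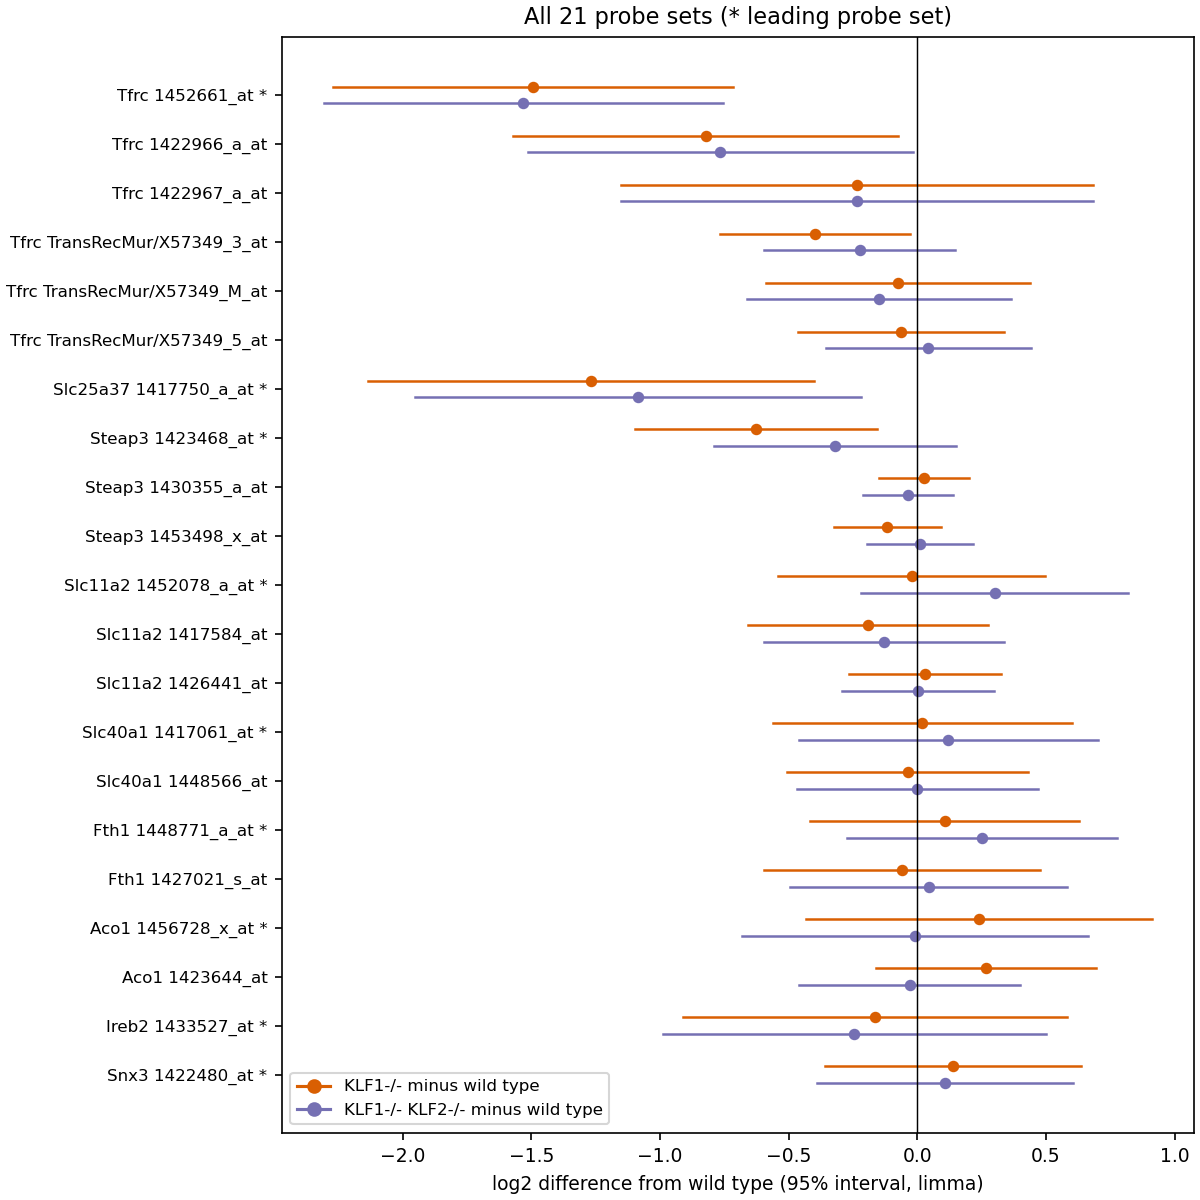
Log2 difference from wild type (horizontal axis) with its 95% interval from limma for all 21 probe sets, KLF1-/- above KLF1-/- KLF2-/- in each row; asterisks mark leading probe sets. The intervals of 1452661_at and 1422966_a_at of Tfrc and of Slc25a37 lie below 0 in both genotypes, and those of the 11 probe sets from Slc11a2 to Snx3 include 0.

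Other genes of iron handling were read from 5 lists, with 42 genes measured in all. By limma 0 of them were called in any of the 4 comparisons, beside 0.0265%, 0.0221%, 0.0707% and 0% of all probe sets in the order used above. At an unadjusted p under 0.05 there were 0, 0, 1 and 0, beside 1.92%, 2.11%, 2.76% and 0.628% of all probe sets. In KLF1-/- 15 of 42 lay below wild type and in KLF1-/- KLF2-/- 18 did, with median log2 differences of 0.04 and 0.05. For the uptake and transferrin cycle, 12 of 14 genes were measured, with medians of 0.04 in each genotype. Rab12, a small GTPase linked to transferrin receptor turnover, differed by 0.62 in each genotype. It was the gene with an unadjusted p under 0.05 for the mean of both, with an adjusted p of 0.9999 by limma. Exoc6, an exocyst subunit mutated in mice with a defect of transferrin cycling, differed by 0.42 and 0.31. For storage, export and heme iron recycling, 10 of 14 were measured, with medians of 0.05 and 0.07, and Ncoa4, the receptor that delivers ferritin to lysosomes, differed by 0.48 and 0.46. For systemic and cellular control, 6 genes were measured (medians 0.02 and −0.01), and for mitochondrial iron and iron-sulfur clusters, 13 of 21 (medians 0.04 and −0.02). Of the messages with iron-responsive elements outside the members, 2 of 4 were measured. Alas2, the erythroid enzyme of the first step of heme synthesis, differed by −0.05 in KLF1-/- and 0.31 in KLF1-/- KLF2-/-, and Epas1, a hypoxia-inducible factor, by 0.15 and 0.08.

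**Figure D5:**
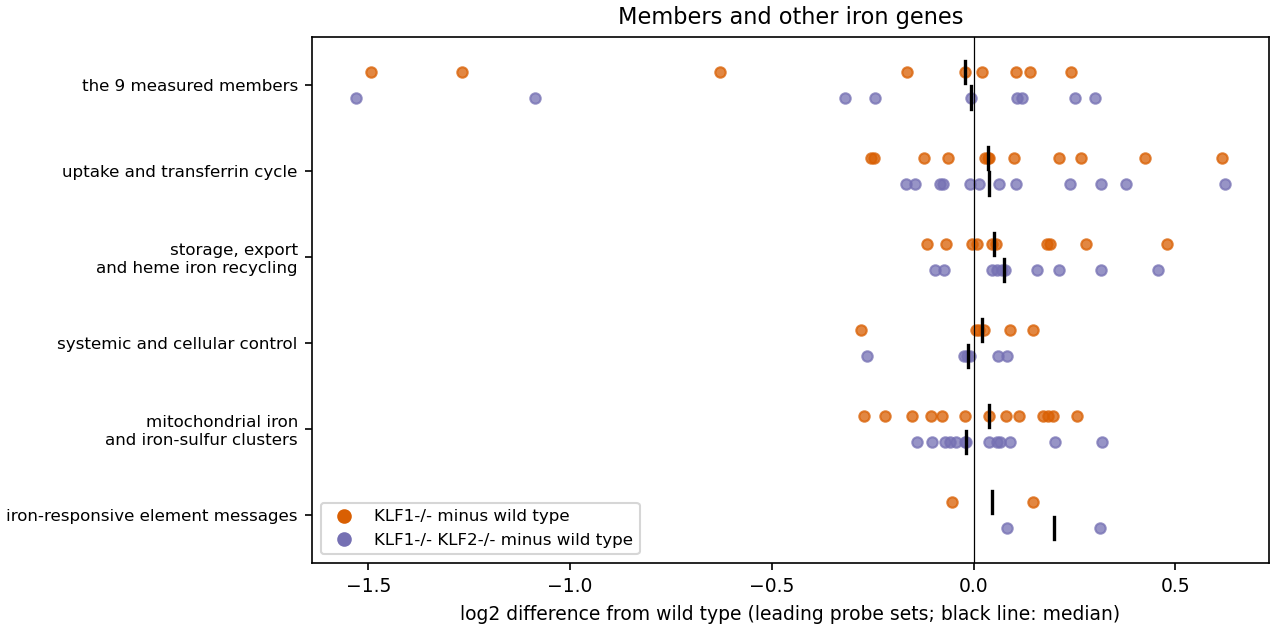
Log2 difference from wild type of the leading probe sets of the 9 measured members and of 5 lists of other iron genes, KLF1-/- above KLF1-/- KLF2-/- in each row, with the median as a black line. Tfrc, Slc25a37 and Steap3 lie apart to the left in KLF1-/-, at −1.49, −1.27 and −0.63, and the medians of all rows lie between −0.02 and 0.20.

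Genes with a pattern most like each of the 3 leading transcripts were found by Pearson's r over the 14 arrays among 12392 other genes, given as a description since these arrays share their genotypes and their amplification. For Tfrc they were Arrb1 (r = 0.966), Klf1 (0.952), Ermap (0.936), Plek2 (0.923) and Ccdc71l (0.916). For Slc25a37 the nearest was Tfrc itself (0.914), followed by Ermap (0.913), Ccdc71l (0.899), Arrb1 and Homer2 (0.896 each). Steap3 had none of these among its nearest, which were Mt3 (0.913), Il10 (0.904), Tsx (0.899), Sorcs3 (0.890) and Abcc3 (0.886). Ermap, a red cell surface protein, had log2 differences of −2.22 in KLF1-/- and −2.06 in KLF1-/- KLF2-/-, and Arrb1, an arrestin, of −1.04 and −1.22, none of them called by limma. Plek2, a pleckstrin family gene, was called in KLF1-/- (−1.46, adjusted p = 0.0367) and not in KLF1-/- KLF2-/- (−0.87, 0.59). Those of Steap3 ranged no lower than −0.32 in KLF1-/- (Tsx).

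Markers of other yolk sac cells were read beside these values. In bulk samples, fewer cells of a type and less RNA per cell cannot be told apart. The mean log2 expression of 9 of 11 primitive erythroid markers ran from 10.59 to 10.79 in KLF1-/- and from 10.42 to 11.18 in KLF1-/- KLF2-/-, against 10.49 to 11.34 in wild type. The list holds very bright globins and 1 dim probe set, that of Hba-a1, and its members did not share one value. Probe sets annotated with several genes could not lead a gene, so the dim value is no measure of all Hba-a1 transcript. Slc4a1, the red cell anion exchanger, had the lowest differences of the list. They were −0.92 in KLF1-/- and −0.88 in KLF1-/- KLF2-/-, with adjusted p = 0.9998 and 0.9999 by limma. All KLF1-/- arrays lay below wild type for it, as for 0.23% of all probe sets. Gata1 went the other way, at 0.43 and 0.47, and the median differences of the list were −0.04 and 0.03. The part of erythroid content in the values of Tfrc, Slc25a37 and Steap3 was not tested. Visceral endoderm markers, 11 of 12 measured, ran from 11.05 to 11.63 in KLF1-/- and from 10.99 to 11.16 in KLF1-/- KLF2-/-, against 10.43 to 12.02 in wild type. Megakaryocyte markers, 8 of 8 measured, ran from 7.32 to 7.45 in KLF1-/- and from 7.50 to 7.93 in KLF1-/- KLF2-/-, both above the 6.90 to 7.29 of wild type. Macrophage and myeloid markers, 11 of 12, ran from 6.69 to 6.78 in KLF1-/- and from 7.07 to 7.09 in KLF1-/- KLF2-/-, the second above the 6.57 to 7.05 of wild type. The members of that list disagreed in KLF1-/- KLF2-/-, with a median log2 difference of 0.37. Laptm5 differed by 1.42, Adgre1 by −0.07, C1qa by −0.12, C1qc by −0.16 and Cybb by −0.02. The others lay from 0.03 (Cd68) to 0.47 (Tyrobp). In wild type, Ppbp, Vwf, Gp5 and Thbs1 of the megakaryocyte list and Ptprc, Cd68, C1qa, C1qc and Cybb of the macrophage list averaged below the median of the arrays. Endothelial and mesenchymal scores, 8 of 8 each, overlapped. No marker list had a called member by limma in either mutant genotype, where 0.0265% and 0.0221% of all probe sets were called. The 3′ minus 5′ difference of the Gapdh controls, a measure of RNA quality, ran from 4.33 to 5.06 in KLF1-/- and from 3.94 to 5.20 in KLF1-/- KLF2-/-, against 3.90 to 5.28 in wild type. With that difference as a covariate the Tfrc values were −1.53 (adjusted p = 0.878 by limma) and −1.54 (0.513). The same difference of the Actb controls ran from 4.74 to 5.07 in KLF1-/- and from 4.67 to 5.25 in KLF1-/- KLF2-/-, against 3.74 to 5.52 in wild type. Its KLF1-/- KLF2-/- values lay above all those of wild-type arrays 9 to 12, 3.74 to 4.55, and its part in the result was not tested. The part of the megakaryocyte and macrophage markers in these values was not tested.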

How the data were processed

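Messenger RNA was measured on Affymetrix mouse arrays, 1 per sample. The authors deposited log2 expression values per probe set, and per the submitters' processing notes GCOS, RMA, affy and limma were used, with no versions given. RMA compresses differences between weak signals. Input RNA was amplified from the poly(A) tail, per the labels' protocols.

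No further normalization was applied to the deposited log2 values. Control probe sets (64) were left out except 3 annotated as Tfrc, kept because every probe set with a member's symbol was taken, which leaves 22629. The platform annotation pairs 20380 probe sets with 1 gene, 691 with several and 1555 with none. A model with a mean for each genotype was fitted over the 14 arrays together (lmFit and eBayes of limma 3.58.1, R 4.3.3, two-sided), with Benjamini-Hochberg adjustment over all probe sets and a threshold of 0.05. The design called for 4 comparisons, of which those against wild type share the wild-type arrays. P-values set each difference against the spread between these pooled samples, not between single embryos, and the number of arrays limits their precision. Named genes are all members, per list the 3 genes with the smallest p for the mean of both mutant genotypes, of which some are printed, and the 5 genes most like Tfrc, Slc25a37 and Steap3. The members and lists were chosen with earlier results of these data known. The fit was tested on simulated data. Alternatives changed the block, the arrays, the normalization, the filter, the probe sets, the variance model, the weights and an RNA quality covariate. Default array weights stopped before convergence, so a gene-by-gene estimate was used. Motifs were searched on both strands with Python 3.11.15; figures used matplotlib 3.10.9, and limma used statmod 1.5.0.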

Additional observations from a re-analysis of the deposited data

Results flagged for a closer look

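In wild type, 2 of the 21 probe sets had 1 array far from the other 7, by the gap to the nearest array as a share of the group's range, with a limit of 0.526 for 8 arrays. Tfrc probe set 1422966_a_at stood at 8.80 on wild-type replicate 9, and the next highest wild-type array was at 7.91. Slc11a2 probe set 1452078_a_at stood at 6.717 on wild-type replicate 1, and the next lowest was at 7.52. Chance flags about 1 in 20 such groups.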

How the results depend on the processing

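The leading probe sets of Tfrc, Slc25a37 and Steap3 kept their direction in all alternatives run against wild type. No paired analysis was possible because the titles give each array its own number, so no number is shared between genotypes. Of the 21 iron gene probe sets, those called for the mean of both mutant genotypes went to 1 with the number run as a block, 1 after quantile normalization, 1 among the brighter probe sets, 2 with array weights and 2 with quantile normalization and the block together (added after seeing the data); in KLF1-/- KLF2-/- they went to 2 with array weights and 1 with normalization and the block. Leaving out single arrays gave 0 in every comparison.

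Over all probe sets, KLF1-/- had 6 calls, but 2 with the block, 1 with wild type of the same run only and 16 with array weights. KLF1-/- KLF2-/- had 5, but 9 after quantile normalization, 8 among the brighter, 8 among leading probe sets, 10 with an intensity trend, 627 with array weights and 12 with normalization and the block. The mean of both had 16, with 20 under the block and 22 among the brighter, but 31, 102 and 39 after quantile normalization, with array weights, and with normalization and the block. Between the mutant genotypes 0 became 1 after quantile normalization, 1 among the brighter, 1 among leading probe sets and 4 with array weights. Leaving out single arrays gave 2 to 7, 1 to 7, 6 to 25 and 0 to 1 in the same order. The fewest, 2, 1 and 6, came without KLF1-/- replicate 6 or 8, without KLF1-/- KLF2-/- replicate 13 or 14, and without KLF1-/- replicate 5, KLF1-/- KLF2-/- replicate 13 or wild-type replicate 10 or 11; the 25 came without wild-type replicate 9. Other omissions that moved a count by over 1.5 times were, in KLF1-/- KLF2-/-, KLF1-/- replicate 8 and wild-type replicate 10 (2 each) and wild-type replicates 1, 2, 3, 11 and 12 (3 each); for the mean of both, KLF1-/- KLF2-/- replicates 14 (9) and 15 (8), KLF1-/- replicate 8 (10) and wild-type replicate 4 (8); and between the mutant genotypes, KLF1-/- replicate 5 (1). The causes were not tested.

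Small uncalled differences changed sign. In KLF1-/-, Slc11a2 became 0.264 with the block, 0.264 within its run, 0.009 with the Gapdh covariate and 0.195 with normalization and the block; Slc40a1 became −0.260, −0.260, −0.093 and −0.238 in the same order, −0.020 after quantile normalization and −0.176 with array weights; Aco1 became −0.063 with the block, −0.063 within its run and −0.038 with normalization and the block; Fth1 became −0.093 with array weights and −0.016 with the covariate; Snx3 became −0.125 with array weights. In KLF1-/- KLF2-/-, Aco1 became 0.296 with the block, 0.296 within its run, 0.025 with array weights and 0.204 with normalization and the block, where Slc11a2 became −0.025 and Snx3 −0.043. For the mean of both, Slc11a2 became −0.031 and Snx3 −0.030 with array weights, and Slc40a1 −0.005 with the covariate. Single omissions gave, in KLF1-/-, −0.057 to 0.227 for Fth1, −0.625 to 0.179 for Ireb2, −0.160 to 0.051 for Slc11a2 and −0.141 to 0.176 for Slc40a1; in KLF1-/- KLF2-/-, −0.147 to 0.130 for Aco1, −0.464 to 0.144 for Ireb2 and −0.026 to 0.361 for Slc40a1; and for the mean of both, −0.022 to 0.242 for Aco1 and −0.031 to 0.190 for Slc40a1.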

Other observations

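Within wild type, no iron gene was called between title numbers 9 to 12 and 1 to 4. Slc25a37 averaged 1.04 higher in 9 to 12, without overlap (as 1.12% of all probe sets did in that direction), Tfrc 1452661_at by 0.86 and Slc11a2 by 0.57 and 0.56 in probe sets 1452078_a_at and 1417584_at, while Slc40a1 1417061_at was lower (−0.56), these 4 with overlap. Of the 21 member probe sets, these 5 were at an unadjusted p under 0.05, beside 7.13% of all probe sets, and 0 of all 22629 were called by limma (smallest adjusted p = 0.639).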
